A study of Mus musculus with 6 samples.

Results

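The proteasome subunit genes are the 48 genes of the 29955 in the deposited RNA-seq table whose symbols run from the Psma to the Psmg series, each series name followed by a number. The rule that picks them reads the symbol and no measured value. They fall into 8 alpha ring and 7 beta ring genes of the 20S core, 4 genes of the immunoproteasome and thymoproteasome, 6 ATPases and 11 non-ATPase subunits of the 19S regulatory particle, 4 activators, and 8 genes for an inhibitor and assembly chaperones. RNA was sequenced from mouse embryo fibroblasts (MEFs) at passage 3, from 3 samples of Rnf40+/+ and 3 samples of Rnf40-/- cells. The Rnf40-/- cells carried an Rnf40 allele with loxP sites on both sides of exons 3 and 4 and a Cre recombinase fused to the estrogen receptor (CreERT2) at the Rosa26 locus, which is expressed in most cell types and is switched on by 4-hydroxytamoxifen (4-OHT). They were grown with 250 nM 4-OHT for 5 days and then for 3 days without it. The study's methods describe MEFs only from embryos with CreERT2 and loxP sites on both Rnf40 alleles. The sources used here do not state whether the Rnf40+/+ libraries came from such cells left without 4-OHT or from cells without loxP sites, nor whether those cells received 4-OHT, so the deletion and the drug cannot be told apart.

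RNF40 is a ubiquitin ligase that acts with RNF20 to place a single ubiquitin on histone H2B, a mark found along transcribed genes. The proteasome is the enzyme complex that degrades proteins tagged with ubiquitin chains. Its 20S core is a barrel whose outer rings are made of alpha subunits, which form the gate, and whose inner rings are made of beta subunits, of which Psmb5, Psmb6 and Psmb7 cut peptide bonds. The 19S particle caps the barrel, binds and removes ubiquitin, and threads the substrate into the core with a ring of ATPases. In cells exposed to interferon, and in cells of the immune system, Psmb8, Psmb9 and Psmb10 replace the standard cutting subunits, and the core can be capped by PA28, made from Psme1 and Psme2, in place of the 19S particle.

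The libraries held from 17053436 to 26344170 reads on genes, and 3 reads, taken as the limit of detection, corresponded to a normalized count from 2.40 to 3.58. A normalized count is what remains of a gene's reads after the size factor of its library is divided out. A gene was called higher or lower when limma, fitted to log2(normalized count + 1) over the 16378 genes with enough reads, gave a Benjamini-Hochberg adjusted p under 0.05. All fold changes below are log2 of Rnf40-/- over Rnf40+/+ on that scale, which understates the change of genes with few reads. The labels do not say whether the samples of a genotype came from separate embryos or cultures, so p-values measure the spread between these samples, which may be technical. Rnf40 itself had normalized counts of 1278, 1195 and 1096 in Rnf40+/+ and of 439, 519 and 487 in Rnf40-/- libraries. That left 40.5% of its reads, counted over the whole gene and not over the deleted exons alone, with a log2 fold change of -1.30 (SE 0.09, adjusted p = 4.25e-07, limma). All 13 fibroblast markers examined had enough reads, and 11 of them were lower in Rnf40-/- libraries (84.6%, against 24.1% of all genes tested), with a summed level from 737111 to 815209 normalized counts in Rnf40+/+ and from 447449 to 449986 in Rnf40-/- libraries. The part that this shift has in the values below was not tested. In RNA from a whole culture, fewer cells of one type and less RNA per cell cannot be told apart.

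Most proteasome genes changed little between the genotypes, and the changes that passed the test went both ways. Of the 47 genes tested, 11 were higher in Rnf40-/- MEFs, which is 23.4% and stands against 23.3% of all genes tested. Another 6 were lower, which is 12.8% against 24.1% of all genes tested, and 30 were not called. At an unadjusted p under 0.05 the number of genes was 23, and the share of all genes at that threshold was not worked out. At the adjusted threshold 47.4% of all genes tested were called in either direction. The 3 libraries of each genotype did not overlap for 13 genes on the higher side and 9 on the lower side, where 27.8% and 28.7% of all genes tested did the same. Over the 47 genes the median log2 fold change was -0.01, beside a median of -0.0035 over all genes tested, and turned to 0.12 when libraries were scaled by their total reads, a scaling that moved the median of all genes up by 0.12. The remaining gene, Psma8, encodes an alpha subunit used in the testis and had at most 6 reads in any library, so it was not tested.

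The size of the changes was small. A log2 fold change below 0.5 in either direction was found for 44 of the 47 genes (93.6%), beside 66.4% of all genes tested and 77.1% of the 4015 genes with a mean between 1000 and 10000 normalized counts, the range that holds most proteasome genes. The median size of the change, whatever its sign, was 0.16 for the proteasome genes, 0.33 for all genes tested and 0.27 for the genes in that range. The genes beyond 0.5 were Psmb8, Psmg4 and Psmb10, all with mean normalized counts under 300. The criteria of the study were a mean above 15, an unadjusted p under 0.05 and a log2 fold change beyond 1 in either direction. When they were applied to the limma values, 1630 genes passed (9.95% of those tested), of which 1 was a proteasome gene, Psmb8. The study worked with DESeq, so these are not its own counts. Summed over all 48 genes, the normalized counts were 116441, 114959 and 114094 in Rnf40+/+ and 119188, 116429 and 125002 in Rnf40-/- libraries. The ranges overlapped, with Rnf40-/- replicate 2 between the Rnf40+/+ libraries. As a share of all reads on genes, the same 48 genes took 0.572%, 0.542% and 0.542% in Rnf40+/+ and 0.624%, 0.616% and 0.646% in Rnf40-/- libraries, which did not overlap, so whether the sum differs depends on the scaling.

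**Figure D1:**
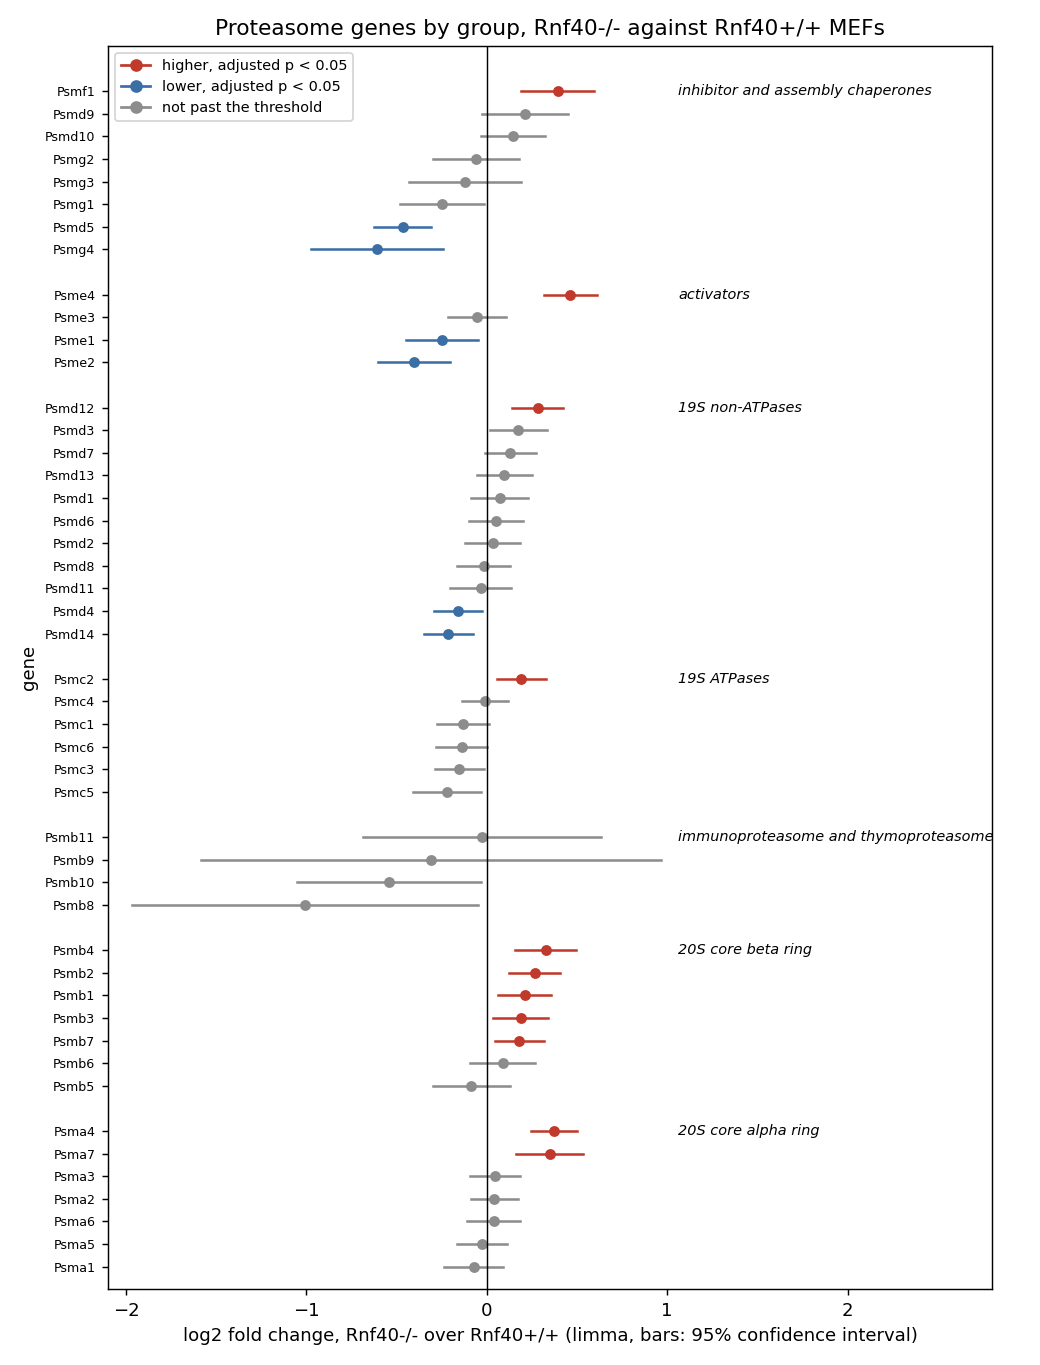
Log2 fold changes of the 47 proteasome genes tested, Rnf40-/- over Rnf40+/+, from limma with 3 libraries per genotype. Each row is a gene, points are estimates, bars are 95% confidence intervals, and colors mark the 11 genes called higher (red), the 6 called lower (blue) and the 30 not called (grey). Called genes of the core rings lie to the right of 0, and the widest intervals belong to the immunoproteasome and thymoproteasome genes.

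Levels were compared between genes per kilobase of the longest annotated transcript, a length that lowers the value of any gene whose main transcript is shorter. On this scale the beta ring genes had mean normalized counts per kilobase between 2412 for Psmb5 and 4470 for Psmb1 in Rnf40+/+ MEFs, a range of 1.85-fold. The alpha ring genes lay between 1343 for Psma3 and 2944 for Psma4, and the 19S ATPases between 1647 for Psmc5 and 2163 for Psmc1. These 3 groups covered narrow ranges, while the 19S non-ATPases reached from 604 for Psmd11 to 5865 for Psmd8. The activators lay lower, between 438 for Psme4 and 979 for Psme2, and the inhibitor and assembly chaperones between 186 for Psmf1 and 1061 for Psmd5. Lowest were the immunoproteasome and thymoproteasome genes, from 7.95 for Psmb11 to 163 for Psmb10 per kilobase. In Rnf40-/- MEFs the highest level within a group again belonged to Psma4, Psmb1, Psmd8, Psmb10 and Psmd5 in their groups, but among the ATPases Psmc2 (2177 per kilobase) stood above the others, and among the activators Psme3 did so (804).

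**Figure D2:**
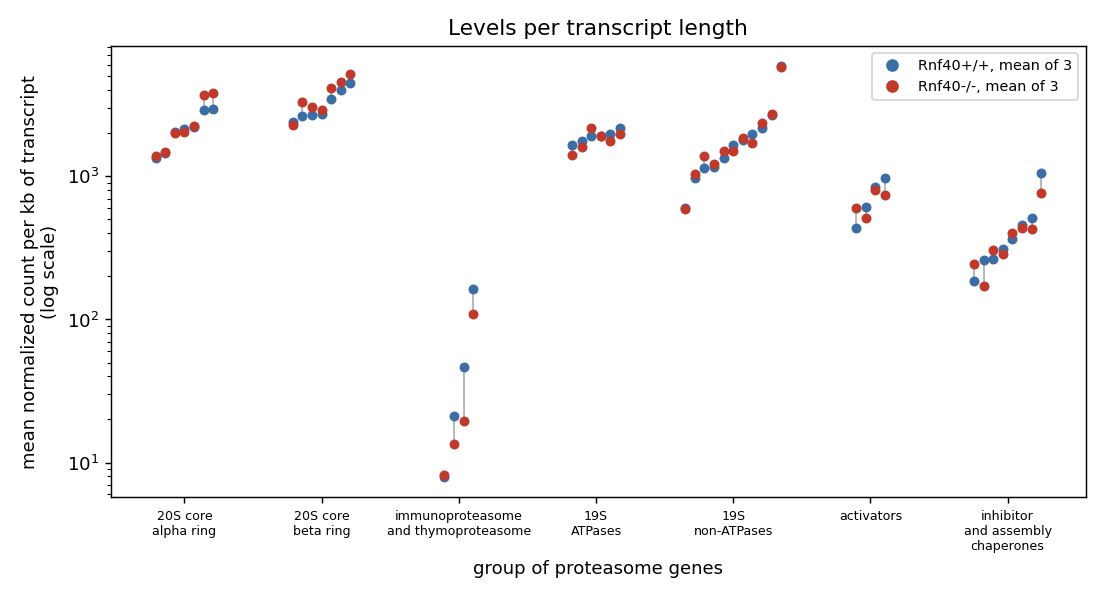
Mean normalized count per kilobase of the longest annotated transcript (log axis) for each tested proteasome gene, arranged by group and ordered by the Rnf40+/+ level. Blue points are means of the 3 Rnf40+/+ libraries and red points of the 3 Rnf40-/- libraries, joined by a grey line. The immunoproteasome and thymoproteasome genes lie at 163 per kilobase or less in Rnf40+/+ MEFs, below every gene of the other groups, whose lowest was Psmf1 at 186.

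All calls among the genes of the 20S core were on the higher side. Of the 14 core genes tested, 7 were higher and none was lower in Rnf40-/- MEFs (no core gene was lower with edgeR or DESeq2, or with limma at an unadjusted p under 0.05, either), with a median log2 fold change of 0.13. Among all genes tested, 23.3% were higher and 24.1% lower. In the alpha ring 2 of 7 genes were higher (28.6%). Psma4 (chromosome 9, 54798597 to 54805837 on the forward strand of mm9), an alpha ring subunit, had normalized counts of 3468, 3474 and 3348 in Rnf40+/+ and of 4420, 4389 and 4513 in Rnf40-/- libraries. Every Rnf40-/- library lay above every Rnf40+/+ library, and the means were 3430 ± 71.4 and 4441 ± 64.8 (SD, n = 3 each), which gave a log2 fold change of 0.37 (SE 0.06, adjusted p = 0.00025, limma). Psma7 (chromosome 2, 179771078 to 179777138, reverse strand) had 2870, 2360 and 2800 normalized counts in Rnf40+/+ and 3489, 3122 and 3604 in Rnf40-/- libraries. Its groups did not overlap either, though replicate 2 was the lowest of both genotypes, and its log2 fold change was 0.35 (SE 0.09, adjusted p = 0.00507). The other 5 alpha ring genes had log2 fold changes between -0.07 (Psma1) and 0.05 (Psma3), none of them called. Reads of Psma5 may include those of a near-identical transcript, Gm8394, with 98.6% identity over 961 nucleotides.

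In the beta ring 5 of 7 genes were higher (71.4%, against 23.3% of all genes tested), with a median log2 fold change of 0.19. Psmb4 (chromosome 3, 94688015 to 94690883, reverse strand), a structural subunit without a cutting site, had normalized counts of 3018, 2871 and 3463 in Rnf40+/+ and of 3986, 3663 and 4048 in Rnf40-/- libraries, a log2 fold change of 0.33 (SE 0.08, adjusted p = 0.00465, limma). Psmb2 (chromosome 4, 126354874 to 126386958, forward strand), likewise structural, had 3132, 2802 and 2961 normalized counts in Rnf40+/+ and 3650, 3538 and 3492 in Rnf40-/- libraries, a log2 fold change of 0.26 (SE 0.06, adjusted p = 0.00486). For both genes the lowest Rnf40-/- library was above the highest Rnf40+/+ library. The structural subunits Psmb1 (0.21, adjusted p = 0.0214) and Psmb3 (0.19, adjusted p = 0.0432) were also higher. These calls were less stable: without Rnf40-/- replicate 1 the adjusted p was 0.0637 for Psmb1 and 0.134 for Psmb3, without Rnf40-/- replicate 3 it was 0.0943 and 0.153, and it was 0.0694 for Psmb1 without Rnf40+/+ replicate 1 and 0.133 for Psmb3 without Rnf40+/+ replicate 2. Psmb3 was also not called when no filter on low values was used (adjusted p = 0.0565), and its reads may include those of Gm4950 and Gm5356, which are 97.1% and 96.3% identical to it over 618 nucleotides.

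The standard cutting subunits gave 1 call, on the higher side, among 3 genes (33.3%, against 23.3% of all genes tested). Psmb7 (chromosome 2, 38443556 to 38499607, reverse strand), which cuts after basic residues, had normalized counts of 3214, 3023 and 3090 in Rnf40+/+ and of 3625, 3355 and 3597 in Rnf40-/- libraries, with no overlap, and its log2 fold change was 0.18 (SE 0.06, adjusted p = 0.0312, limma). It lost the call without Rnf40+/+ replicate 2 (adjusted p = 0.073), without Rnf40-/- replicate 1 (0.139) and without Rnf40-/- replicate 3 (0.0934). Psmb6 (chromosome 11, 70338869 to 70341360, forward strand), which cuts after acidic residues, had 2128, 1984 and 2431 normalized counts in Rnf40+/+ and 2265, 2195 and 2484 in Rnf40-/- libraries, so that the groups overlapped (log2 fold change 0.09, SE 0.08, adjusted p = 0.406). Psmb5 (chromosome 14, 55232644 to 55236851, reverse strand), the chymotrypsin-like subunit and the target of the drug bortezomib, had 2004, 2060 and 2238 in Rnf40+/+ and 2007, 1685 and 2285 in Rnf40-/- libraries. Its Rnf40-/- libraries held both the lowest and the highest value of all 6, and its log2 fold change was -0.09 (SE 0.10, adjusted p = 0.502).

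**Figure D3:**
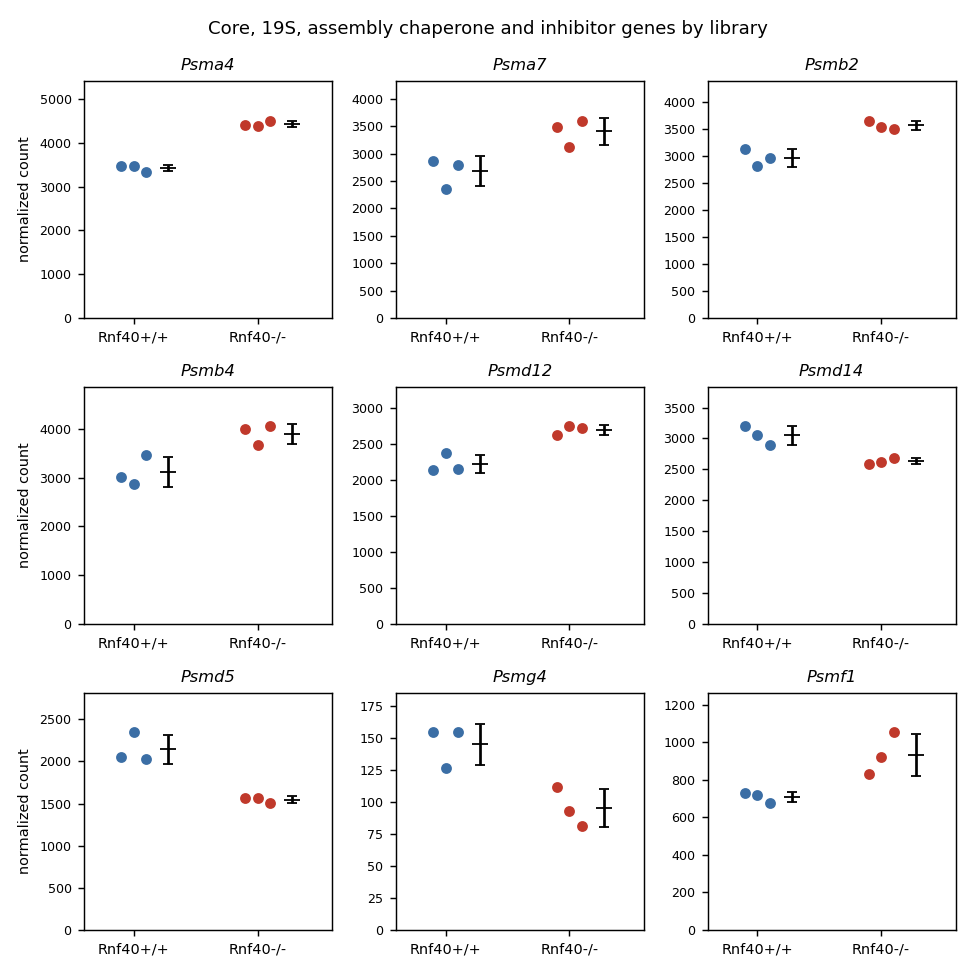
Normalized counts by library (y axes, each starting at 0) of Psma4, Psma7, Psmb2, Psmb4, Psmd12, Psmd14, Psmd5, Psmg4 and Psmf1 in Rnf40+/+ (blue) and Rnf40-/- (red) MEFs, with the mean and SD of 3 libraries in black. The 9 genes were picked from those called without overlap between the genotypes, so the lack of overlap follows from the choice. Psmd14, Psmd5 and Psmg4 are lower and the others higher in Rnf40-/- libraries.

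The immunoproteasome genes had low and scattered levels, and none of them was called, against 47.4% of all genes tested called in either direction. The unadjusted p was under 0.05 for 2 of the 4 genes of the group, with no share of all genes worked out at that threshold. Psmb8 (chromosome 17, 34334666 to 34338399, forward strand), the inducible counterpart of Psmb5, had normalized counts of 100.3, 25.5 and 100.6 in Rnf40+/+ and of 35.7, 25.0 and 34.0 in Rnf40-/- libraries. Rnf40+/+ replicate 2 lay among the Rnf40-/- libraries, while the other Rnf40+/+ libraries lay far above them. The log2 fold change was -1.01 (SE 0.44, 95% confidence interval -1.97 to -0.05, adjusted p = 0.0782, limma). Tests on the recovered reads called it, with a log2 fold change of -1.26 and an adjusted p of 0.0341 from the quasi-likelihood test of edgeR, and -1.25 and 0.00806 from the Wald test of DESeq2. Leaving out 1 library gave log2 fold changes from -1.66 to -0.69. Among these fits limma called the gene only without Rnf40+/+ replicate 2 (-1.66, adjusted p = 0.00083).

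Psmb10 (chromosome 8, 108459628 to 108462292, reverse strand), the inducible counterpart of Psmb7, had 182.7, 150.9 and 289.1 normalized counts in Rnf40+/+ and 176.4, 107.5 and 135.0 in Rnf40-/- libraries. Here Rnf40-/- replicate 1 lay within the range of the Rnf40+/+ libraries (log2 fold change -0.54, SE 0.23, adjusted p = 0.0752, limma). DESeq2 called it (adjusted p = 0.0401) and edgeR did not. Leaving out 1 library gave log2 fold changes from -0.74 to -0.28. Among these fits limma called it only without Rnf40+/+ replicate 2 (-0.74, adjusted p = 0.0369) and without Rnf40-/- replicate 1 (-0.73, adjusted p = 0.0366). Psmb9 (chromosome 17, 34318932 to 34324697, reverse strand), the counterpart of Psmb6, had 59.7, 9.18 and 16.8 in Rnf40+/+ and 23.5, 9.39 and 21.7 in Rnf40-/- libraries, and 1 Rnf40+/+ library held the high value (log2 fold change -0.31, SE 0.58, adjusted p = 0.692). Its 5′ end overlaps that of Tap1 on the opposite strand, with 212 nucleotides of transcript in common, and the sources do not say whether reads were counted by strand. Psmb11 (chromosome 14, 55244147 to 55248393, forward strand), the subunit of the thymus, had 33.4, 29.6 and 38.3 in Rnf40+/+ and 49.96, 29.2 and 24.5 in Rnf40-/- libraries, with the Rnf40-/- libraries on both sides of the Rnf40+/+ ones (log2 fold change -0.02, SE 0.30, adjusted p = 0.956). It is a gene of 1 exon whose transcript holds stretches of over 100 nucleotides alike to other transcripts, so reads from elsewhere cannot be told apart.

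Each inducible subunit was also set against the standard subunit it replaces within the same library. The percentages below do not depend on how libraries are scaled. The log2 ratios were taken after adding 1 to each normalized count, so they can depend on it where counts are low. Per transcript length, Psmb8 stood at 2.68%, 0.662% and 2.41% of Psmb5 in Rnf40+/+ and at 0.951%, 0.795% and 0.796% in Rnf40-/- libraries. The log2 ratio was 0.92 smaller in Rnf40-/- (-5.94 ± 0.14 against -5.02 ± 1.10, SD, n = 3 each, exact permutation test, two-sided, p = 0.4, adjusted over the 3 ratios 0.6). Psmb10 stood at 5.19%, 4.56% and 8.54% of Psmb7 in Rnf40+/+ and at 4.44%, 2.93% and 3.43% in Rnf40-/- libraries, so that this ratio alone did not overlap between the genotypes. The difference in its log2 ratio was -0.72 (exact permutation p = 0.1, the smallest that 3 against 3 libraries can give, adjusted 0.3). For Psmb9 and Psmb6 the difference was -0.40 (exact permutation p = 0.8, adjusted 0.8), and it turned to 0.34 without Rnf40+/+ replicate 1. No ratio could pass the threshold in a design of this size.

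Markers of leukocytes, the cells in which these subunits are the usual form, were measured beside them. Of the 12 leukocyte markers that were found, 10 were tested. In Rnf40-/- libraries 2 were higher (20%) and 3 were lower (30%), against 23.3% and 24.1% of all genes tested. The summed levels of the 12 markers were 5941, 6357 and 10274 normalized counts in Rnf40+/+ and 4187, 3853 and 4318 in Rnf40-/- libraries, and the T cell marker Cd3e had no read in any library. Most of these sums came from Lyz2, and without it they were 1997, 1800 and 2833 in Rnf40+/+ and 1869, 1761 and 1935 in Rnf40-/- libraries, which overlapped. Ptprc, the leukocyte marker CD45, was higher in Rnf40-/- libraries (log2 fold change 1.37, SE 0.19, adjusted p = 0.00012, limma), and so was Cd14 (0.66, adjusted p = 0.00316). The lower ones were Tyrobp (-1.71, adjusted p = 0.00024), Lyz2 (-1.18, adjusted p = 0.000167) and Fcer1g (-0.71, adjusted p = 0.017). The endothelial markers summed to between 139 and 279 in Rnf40+/+ and 225 and 315 in Rnf40-/- libraries. Of the 5 endothelial markers tested, 3 were higher (60%) and 1 was lower (20%). The epithelial markers summed to between 33.7 and 107 in Rnf40+/+ and 39.7 and 64.2 in Rnf40-/- libraries (none of 3 called with limma). The part of such cells in the immunoproteasome values was not tested.

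The activators moved in opposite directions. Psme4 (chromosome 11, 30671726 to 30780361, forward strand) encodes PA200, a nuclear activator that caps the core without ubiquitin or ATP. Its normalized counts were 2802, 3028 and 2705 in Rnf40+/+ and 3911, 4118 and 3732 in Rnf40-/- libraries. Every Rnf40-/- library was above every Rnf40+/+ library, and the log2 fold change of 0.46 (SE 0.07, adjusted p = 0.000156, limma) was the largest rise among the proteasome genes. The genes of the PA28 ring, which are induced by interferon, were both lower. Psme2 (chromosome 14, 56206278 to 56209950, reverse strand) had 947.0, 846 and 1031 normalized counts in Rnf40+/+ and 689, 668 and 775 in Rnf40-/- libraries (log2 fold change -0.40, SE 0.09, adjusted p = 0.00347). Psme1 (chromosome 14, 56196960 to 56200366, forward strand) had 714, 611 and 716 in Rnf40+/+ and 579, 533 and 603 in Rnf40-/- libraries (log2 fold change -0.25, SE 0.09, adjusted p = 0.0422). The groups did not overlap for either gene, though for Psme1 the closest libraries were 603 and 611. The call of Psme1 was lost without Rnf40+/+ replicate 1 (adjusted p = 0.111) or 3 (0.0946), and without Rnf40-/- replicate 1 (0.0927), 2 (0.155) or 3 (0.0506). It was also lost with DESeq2 (0.0631), TMM normalization (0.0512) or no filter on low values (0.0506). With scaling by total reads Psme1 had a log2 fold change of -0.12 (adjusted p = 0.302, limma). Psme2 was called under every alternative tried, scaling by total reads among them. Reads of Psme2 may include those of its copy Psme2b-ps, which is 99.4% identical over 794 nucleotides.

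Psme3 (chromosome 11, 101177527 to 101184851, forward strand), which forms the nuclear PA28 gamma ring, had normalized counts of 2410, 2271 and 2016 in Rnf40+/+ and of 2078, 2167 and 2184 in Rnf40-/- libraries. The groups overlapped, with a log2 fold change of -0.06 (SE 0.07, adjusted p = 0.569, limma). The changes of the 4 activators thus ran from -0.40 to 0.46. Psme1 and Psme2 are neighbours on chromosome 14, 5911 base pairs apart and on opposite strands.

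**Figure D4:**
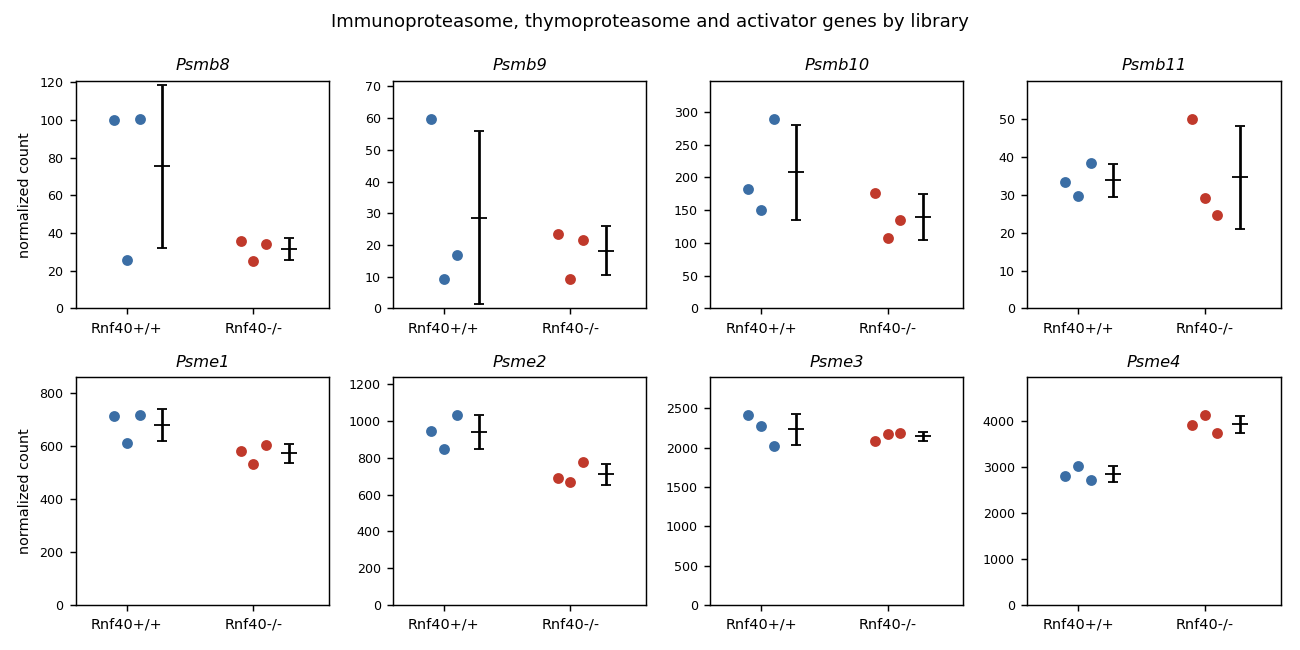
Normalized counts by library (y axes, each starting at 0) of the immunoproteasome genes Psmb8, Psmb9 and Psmb10, the thymoproteasome gene Psmb11 and the activator genes Psme1 to Psme4 in Rnf40+/+ (blue) and Rnf40-/- (red) MEFs, with the mean and SD of 3 libraries in black. The genotypes overlap in every gene of the upper row, and in the lower row Psme1 and Psme2 lie lower and Psme4 higher in Rnf40-/- libraries without overlap.

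In the 19S regulatory particle 2 of 17 genes were higher and 2 were lower (11.8% each, against 23.3% and 24.1% of all genes tested), with a median log2 fold change of -0.01. Among the 6 ATPases, Psmc2 (chromosome 5, 21291101 to 21309605, forward strand) was called higher, with normalized counts of 3312, 3558 and 3336 in Rnf40+/+ and of 3758, 3836 and 4063 in Rnf40-/- libraries. These did not overlap (log2 fold change 0.19, SE 0.06, adjusted p = 0.025, limma), but the call was lost without Rnf40+/+ replicate 1 (0.0701) and without Rnf40-/- replicate 1 (0.0548), 2 (0.0601) or 3 (0.0971). The other 5 ATPases had log2 fold changes below 0, from -0.22 for Psmc5 (adjusted p = 0.0531) and -0.15 for Psmc3 (0.0659) to -0.01 for Psmc4, and none of them was called. The libraries of the genotypes did not overlap for Psmc5 and Psmc3. Calls appeared for Psmc5 without Rnf40+/+ replicate 1 (-0.27, adjusted p = 0.0308) and with upper-quartile normalization (0.0483), DESeq2 (0.04996) or at least 10 reads in every library (0.0499), for Psmc3 without Rnf40-/- replicate 3 (0.0412) and for Psmc6 without Rnf40+/+ replicate 3 (0.022). Leaving out 1 library gave log2 fold changes from -0.27 to -0.14 for Psmc5, from -0.19 to -0.13 for Psmc3 and from -0.19 to -0.11 for Psmc6. With scaling by total reads Psmc5 had a log2 fold change of -0.09 (adjusted p = 0.359, limma). The ATPases form a single ring, and their median log2 fold change was -0.14, or -0.01 with scaling by total reads.

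Among the 11 non-ATPase subunits, Psmd12 (chromosome 11, 107340798 to 107365676, forward strand), a scaffold of the lid, had normalized counts of 2142, 2371 and 2151 in Rnf40+/+ and of 2624, 2746 and 2724 in Rnf40-/- libraries, a log2 fold change of 0.28 (SE 0.07, adjusted p = 0.00381, limma). Psmd14 (chromosome 2, 61549751 to 61638433, forward strand), the enzyme that takes ubiquitin chains off substrates, had 3195, 3058 and 2898 in Rnf40+/+ and 2586, 2623 and 2680 in Rnf40-/- libraries, a log2 fold change of -0.21 (SE 0.06, adjusted p = 0.0145). Psmd4 (chromosome 3, 94836616 to 94846536, reverse strand), a ubiquitin receptor, had 2929, 2832 and 3035 in Rnf40+/+ and 2710, 2577 and 2581 in Rnf40-/- libraries, a log2 fold change of -0.16 (SE 0.06, adjusted p = 0.0487). None of these 3 genes overlapped between the genotypes. The call of Psmd12 held under every other setting tried, scaling by total reads included. That of Psmd14 was lost without Rnf40+/+ replicate 1 (adjusted p = 0.0542) and without Rnf40-/- replicate 1 (0.072), and its log2 fold change was -0.09 (adjusted p = 0.284) when libraries were scaled by total reads. Psmd4 lost its call under 11 alternatives, among them scaling by total reads (-0.04, adjusted p = 0.667), edgeR (adjusted p = 0.0547), DESeq2 (0.0673) and every library left out except Rnf40+/+ replicate 2 (0.0868 to 0.139).

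The other 8 non-ATPase genes had log2 fold changes between -0.03 and 0.17. The highest was Psmd3 (0.17, adjusted p = 0.0675, limma), whose libraries overlapped between the genotypes and which was called without Rnf40+/+ replicate 3 (0.0238) or Rnf40-/- replicate 2 (0.0388). The large scaffold subunits Psmd1 and Psmd2, which hold ubiquitin shuttles and other partners, had log2 fold changes of 0.07 and 0.03. The gene with the highest level per kilobase, Psmd8, had a log2 fold change of -0.02.

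The inhibitor and assembly chaperones gave 1 higher and 2 lower calls among 8 genes (12.5% and 25%, against 23.3% and 24.1% of all genes tested). Psmd5 (chromosome 2, 34707608 to 34726459, reverse strand), a chaperone that holds ATPases before the 19S base is complete, had normalized counts of 2053, 2344 and 2031 in Rnf40+/+ and of 1569, 1569 and 1504 in Rnf40-/- libraries. No library of one genotype reached those of the other, and the means were 2143 ± 175 and 1547 ± 37.4 (SD, n = 3 each), which gave a log2 fold change of -0.47 (SE 0.07, adjusted p = 0.000239, limma). The chaperones Psmd9 (0.21, adjusted p = 0.13) and Psmd10 (0.14, adjusted p = 0.171), which act on the same base, were not called. Psmd9 was called without Rnf40+/+ replicate 3 (adjusted p = 0.0112), and leaving out 1 library gave its log2 fold changes from 0.12 to 0.33.

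Psmg4 (chromosome 13, 34254833 to 34270041, forward strand), which helps the alpha ring to assemble, had 154.1, 126.5 and 154.1 normalized counts in Rnf40+/+ and 111.1, 92.9 and 81.2 in Rnf40-/- libraries, again without overlap. Its log2 fold change of -0.61 (SE 0.17, adjusted p = 0.0105, limma) was the largest fall among the called genes. Its partner in that step, Psmg3, had a log2 fold change of -0.12 (adjusted p = 0.508), and the pair Psmg1 and Psmg2, which act earlier, had -0.25 (adjusted p = 0.0775) and -0.06 (0.681). Psmg1 was called without Rnf40+/+ replicate 2 (0.0315), and leaving out 1 library gave its log2 fold changes from -0.34 to -0.14. Psmf1 (chromosome 2, 151541548 to 151569922, reverse strand) encodes PI31, which binds the core and inhibits it in the test tube. It had 731, 718 and 676 normalized counts in Rnf40+/+ and 830.0, 919 and 1052 in Rnf40-/- libraries, which did not overlap (log2 fold change 0.39, SE 0.09, adjusted p = 0.00409). The median of the 8 genes was -0.09, and it was 0.0028 without Rnf40+/+ replicate 3 and 0.03 with scaling by total reads.

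Sequence before the gene starts was examined for motifs of factors known to act on proteasome genes, since several core genes were higher and the PA28 genes lower. RefSeq windows of GRCm38.p6, from 250 bases before to 50 after each start, were matched by symbol for 40 of the 48 genes (43 windows), without Psma8, Psmb1, Psmb2, Psmb7, Psmc3, Psmd3, Psmd7 and Psmg2, and searched on both strands. The antioxidant response element, bound by the factor NRF1 that drives proteasome genes when the complex is inhibited, was searched as TGACNNNGC, whose first letters TGAC also open the CRE and AP-1 motifs. It was found in 6 of the 43 windows (14.0%) and in 12.4% of all 32851 windows. Nfe2l1, the gene for NRF1, which is named here after its values were seen, was lower in Rnf40-/- libraries (log2 fold change -0.26, SE 0.06, adjusted p = 0.00606, limma). The NF-Y box CCAAT was found in 14 (32.6%), against 37.4% of all. The IRF-type element, made of a pair of GAAA blocks with any 2 bases between them and of the kind bound by interferon regulatory factors, was found in 5 (11.6%), against 3.44% of all, and the GAS-type element TTCNNNGAA, of a kind bound by factors of the interferon response, in 3 (6.98%), against 8.30%. The windows below show 1 match each for a gene that was called higher (Psmb3), a gene that was called lower (Psmd4), an inducible subunit (Psmb8) and the standard subunit that it replaces (Psmb5). Capitals mark the letters that match.
Psmb3, IRF-type element, chr11:97703261-97703290, reverse strand: atggaaagcgGAAAGTGAAAagtcactgtg
Psmd4, IRF-type element, chr3:95042675-95042704, forward strand: aggcgccacaGAAATGGAAAggttggttat
Psmb8, GAS-type element, chr17:34198088-34198117, forward strand: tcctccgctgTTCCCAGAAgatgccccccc
Psmb5, antioxidant response element, chr14:54618023-54618052, reverse strand: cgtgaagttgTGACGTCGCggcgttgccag
The other IRF-type matches were in the windows of Psmd9, Psme1 and Psmg4, and Psme2 had none. Both Psmb3 and Psmd4 lost their calls under some of the settings described above. The match of Psmb8, a motif that reads the same on both strands, ends 88 bases before the start. That of Psmb5 ends 38 bases before the start on the strand of the gene, and those of Psmb3 and Psmd4 end 153 and 70 bases before it on the opposite strand. A match describes the letters only and shows no binding.

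Genes that work with the proteasome but carry other names were counted from lists chosen by function. Of 19 partners tested, among them ubiquitin shuttles, deubiquitinases and factors of assembly or transcription, 5 were higher (26.3%) and 3 were lower (15.8%), beside 23.3% and 24.1% of all genes tested, with a median log2 fold change of 0.06. Usp14, a deubiquitinase that sits on the 19S particle, had normalized counts of 2637, 2569 and 2540.2 in Rnf40+/+ and of 1792, 1750.2 and 1784 in Rnf40-/- libraries, with no overlap and a log2 fold change of -0.54 (SE 0.06, adjusted p = 1.76e-05, limma). The ubiquitin shuttle Ubqln1 (0.44, adjusted p = 0.000174) and Fbxo7, a ligase subunit that binds PI31 (0.42, adjusted p = 0.0156), were higher. Of 9 genes for ubiquitin and its delivery, 1 was higher (11.1%), Ufd1l (0.20, adjusted p = 0.0241), and 2 were lower (22.2%), with a median of -0.08. The lower ones were Uba6 (-0.75, adjusted p = 6.39e-05), a ubiquitin-activating enzyme, and Rps27a (-0.40, adjusted p = 0.0025), which encodes ubiquitin fused to a ribosomal protein.

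Genes of peptide presentation and of the interferon response, the setting in which the immunoproteasome is known, gave 4 higher and 4 lower calls among 11 tested (36.4% each, beside 23.3% and 24.1% of all genes tested), with a median log2 fold change of 0.07. Irf9, a transcription factor of the interferon response, was lower (log2 fold change -0.62, SE 0.12, adjusted p = 0.000992, limma). Tap1, which carries peptides into the endoplasmic reticulum and lies beside Psmb9, had 478, 557 and 557 normalized counts in Rnf40+/+ and 822, 735 and 764 in Rnf40-/- libraries and was higher (0.55, SE 0.09, adjusted p = 0.000371). The largest rise in the list was that of H2-D1, a class I gene that presents peptides (0.81, adjusted p = 7.8e-07), and reads of such genes can be shared with their near relatives.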

How the data were processed

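RNA-seq of 3 Rnf40+/+ and 3 Rnf40-/- MEF samples was analysed. Per the labels, the authors made directional libraries and mapped the reads to the mm9 transcriptome. The submitters' processing notes name Bowtie2 2.1.0 and DESeq 1.14.0. The counting tool and its strand setting are not given in the sources used here. The deposited values are a signal per gene, reads divided by 1 size factor per library by the authors. In each library 100% of the values were whole multiples of 1 read (within 0.01 of a read), which gave back the reads.

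The test was limma 3.58.1 (lmFit, eBayes with trend) on log2(normalized count + 1), in R 4.3.3, fitted with genotype alone, and p-values were adjusted by the Benjamini-Hochberg method across the 16378 genes that passed filterByExpr of edgeR 4.0.16 on the recovered reads. A total of 7410 genes had no read. With an adjusted p under 0.05, 3809 genes were higher and 3955 lower. No libraries were duplicates (chi-square per gene at least 5.31 within a genotype). Rnf40+/+ replicate 3 stood apart from replicates 1 and 2 of its genotype, with 28.3 and 25.6, against 7.85 between replicates 1 and 2. Ratios of subunits were tested by exact permutation.

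Values in every library are given for immunoproteasome, activator and standard cutting subunits and, in each other group, for up to 2 called genes per direction with the largest changes and no overlap. Up to 4 called genes are named per pathway list. Some genes of these lists are not reported here. The members and lists were chosen with earlier results of these data known, so no test was run over a list. Alternatives were TMM and upper-quartile normalization, edgeR and DESeq2 1.42.0, other filters and pseudocounts, a replicate block and each library left out. Scaling by total reads was added after seeing the data. The scripts were tested on simulated data. Positions are from mm9 (GENCODE) and promoters from RefSeq GRCm38.p6.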

Additional observations from a re-analysis of the deposited data

How the results depend on the processing

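Of the 17 called proteasome genes, 7 of the 11 higher (Psma4, Psma7, Psmb2, Psmb4, Psmd12, Psme4 and Psmf1) and 3 of the 6 lower (Psmd5, Psme2 and Psmg4) kept their call under 16 other settings, all those tried except scaling by total reads. Leaving out 1 library gave 7 to 13 higher and 4 to 9 lower calls, with 7 higher without Rnf40-/- replicate 1 and 7 without Rnf40-/- replicate 3. Fewer libraries enter these fits. Over all 16378 genes tested they gave 3030 to 3761 higher and 3335 to 3886 lower calls, in place of 3809 and 3955. There were 3030 higher without Rnf40-/- replicate 1 and 3202 without Rnf40-/- replicate 3. Scaling by total reads, added after seeing the data, moved the median of all genes by 0.12. It moved the calls over the 16378 genes tested from 3809 higher and 3955 lower to 5197 and 2955 (63.8% of calls higher in place of 49.1%). Under it 21 proteasome genes were higher, including all 11, and 3 lower (Psmd5, Psme2 and Psmg4), and the median log2 fold changes were 0.17 for the alpha ring, 0.31 for the beta ring, -0.011 for the ATPases, 0.18 for the non-ATPases, -0.026 for the activators and 0.034 for the inhibitor and assembly chaperones, the last of which changed sign. A scaling changes 1 factor per library for all genes alike. Relative to the shift of all genes these medians therefore had to stay near the main ones. Leaving out 1 library gave medians of the inhibitor and assembly chaperones from -0.14 to 0.0028, and differences in the log2 ratio of Psmb9 to Psmb6 from -0.90 to 0.34. Over all genes, deviations of samples with the same replicate number had correlations of 0.012, 0.017 and 0.021, and those with different numbers from -0.053 to 0.037. The labels do not say whether the numbers pair the samples, and such correlations from 3 samples per genotype cannot decide it. With a replicate block 13 genes were higher (11 shared) and 9 lower (5 shared, without Psmd4), where 4021 of all genes tested were higher and 4196 lower. The block gave calls that limma did not give without it. On the lower side they were Psmb8 (adjusted p = 0.0121), Psmb10 (0.0171), Psmc5 (0.0176) and Psmg1 (0.0398). On the higher side they were Psmd3 (0.0367) and Psmd9 (0.0384). The fewest reads behind a tested proteasome gene were 9, for Psmb9, where counting error is largest.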
